A study of Mus musculus with 20 samples.

Results

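The genes described here were 9 markers of striatal projection neurons: Drd1, Drd2, Adora2a, Gng7, Rgs9, Pde10a, Ppp1r1b, Rarb and Syndig1l. They were a set list of 9 among 35580 genes with measured transcripts, and the estimated counts and the TPM values (a level corrected for transcript length and library total) of all transcripts of a gene were summed in each sample. The genes were chosen by their levels in these same 20 samples, within each tissue and genotype, so their levels and differences are given as a description. Counts of calls from the main fits over all genes are printed beside the share of all genes, and nothing is read from any such count for the 9 genes. RNA-seq was performed on hippocampus and neocortex of miR-324-null and wild-type (WT) mice, with 5 samples in each of the 4 groups. All samples came from male C57BL/6J mice aged 13.5 months. The WT mice carried no engineered allele. The null mice lacked Mir324, the gene of the microRNA miR-324, in every cell, through a CRISPR deletion made in embryos of mixed C57BL/6 and CBA/Ca origin and crossed back to C57BL/6J. WT and null lines were derived from crosses of heterozygotes. Whether hippocampus and neocortex samples of the same number came from the same mouse was not stated. No value for Mir324 was used here, so the genotype labels were not checked against it. The tissue labels were checked against markers: the summed level of 6 hippocampal markers was 128 to 174 TPM in hippocampus and 6.75 to 22.5 TPM in neocortex samples.

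Striatal projection neurons are the GABA-releasing output neurons of the striatum, which lies beneath the neocortex. They receive dopamine from the midbrain and form a direct pathway, whose cells carry the D1 dopamine receptor, and an indirect pathway, whose cells carry the D2 dopamine receptor together with an adenosine receptor. D1 and this adenosine receptor raise cyclic AMP (cAMP), D2 receptors lower it, and G protein subunits, phosphodiesterases and a phosphatase inhibitor that both cell types share carry these signals onward. Neurons of the neocortex and hippocampus also use several of these genes.

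In the neocortex the 9 genes varied together from sample to sample. Null sample 3 had the highest level of all 9 genes and null sample 4 the second highest of all 9, while WT sample 1 was among the lowest 3 samples for all 9, WT sample 5 for 8 and WT sample 4 for 7. WT sample 2 and null samples 1 and 2 lay between these extremes, so the levels did not divide cleanly by genotype. The log2 fold changes of null over WT were nonetheless above 0 for all 9 genes in the neocortex, from 0.47 to 1.73, where 51.9% of all genes were above 0. In the hippocampus the 9 log2 fold changes were below 0, from -0.64 to -0.02, where 50.3% of all genes were above 0. The value nearest 0, that of Rarb, was 0.16 once transcript length entered the fit. It was 0.03 without null sample 3 and 0.04 without null sample 5. Adora2a turned to 0.11 without WT sample 3, and Drd2 to 0.05 without WT sample 5. Levels in the hippocampus differed less between samples (1.49-fold to 3.08-fold from lowest to highest, against 2.52-fold to 27.8-fold in the neocortex). In such bulk samples, fewer cells of a type and less RNA per cell cannot be told apart.

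Library totals lay between 12752439 and 19617765 estimated counts. Neocortex null sample 2 stood apart in other gene lists, with a summed level of 52.6 TPM over 4 olfactory bulb markers (5.37 to 11.5 TPM in the other neocortex samples) and 1289 TPM over 7 choroid plexus markers (18.6 to 87.7 TPM in the others). Choroid plexus sums of 6964 and 6014 TPM set hippocampus WT sample 3 and null sample 5 apart from the other hippocampus samples, at 38.7 to 181 TPM. Hippocampus WT sample 5 had the highest sum over 5 thalamus markers, 73.2 TPM, and hippocampus WT sample 2 the highest in that tissue over 5 markers of cholinergic neurons, 9.74 TPM. The part of these lists in the results was not tested.

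The microRNA that the null mice lack is printed first, because each of its arms could pair with messenger RNAs of the list. Both mature arms are given 5′ to 3′ from RefSeq (GRCm38.p6), with bases 2 to 8, the seed, in capitals. They lie at chr11:70012060-70012082 and chr11:70012095-70012114 on the plus strand.
mmu-miR-324-5p: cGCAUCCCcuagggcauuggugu
mmu-miR-324-3p: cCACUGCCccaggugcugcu

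Matches to the seeds were sought in the 3′UTR of the most abundant complete coding transcript of each gene. None of the 9 genes held a match to the miR-324-5p seed, which 7.91% of the 14366 genes with such a transcript held. Pde10a and Syndig1l held 1 match each to the miR-324-3p seed, which 14.5% of the 14366 genes held. The sites are shown with the match in capitals and with flanking bases, since these were the only matches in the list. The first lies at chr17:8984319-8984340 (GRCm38, plus strand) and the second at chr12:84677600-84677621 (minus strand).
Pde10a 3′UTR: gaagctgcggGGCAGTGtaaag
Syndig1l 3′UTR: tgaatgatggGGCAGTGgcggt

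A match of letters is a description and not a site of action. In the neocortex Pde10a had the smallest of the 9 log2 fold changes, 0.47 (SE 0.24), and Syndig1l a larger one, 1.26 (SE 0.51), below Drd2 and Adora2a.

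**Figure D1:**
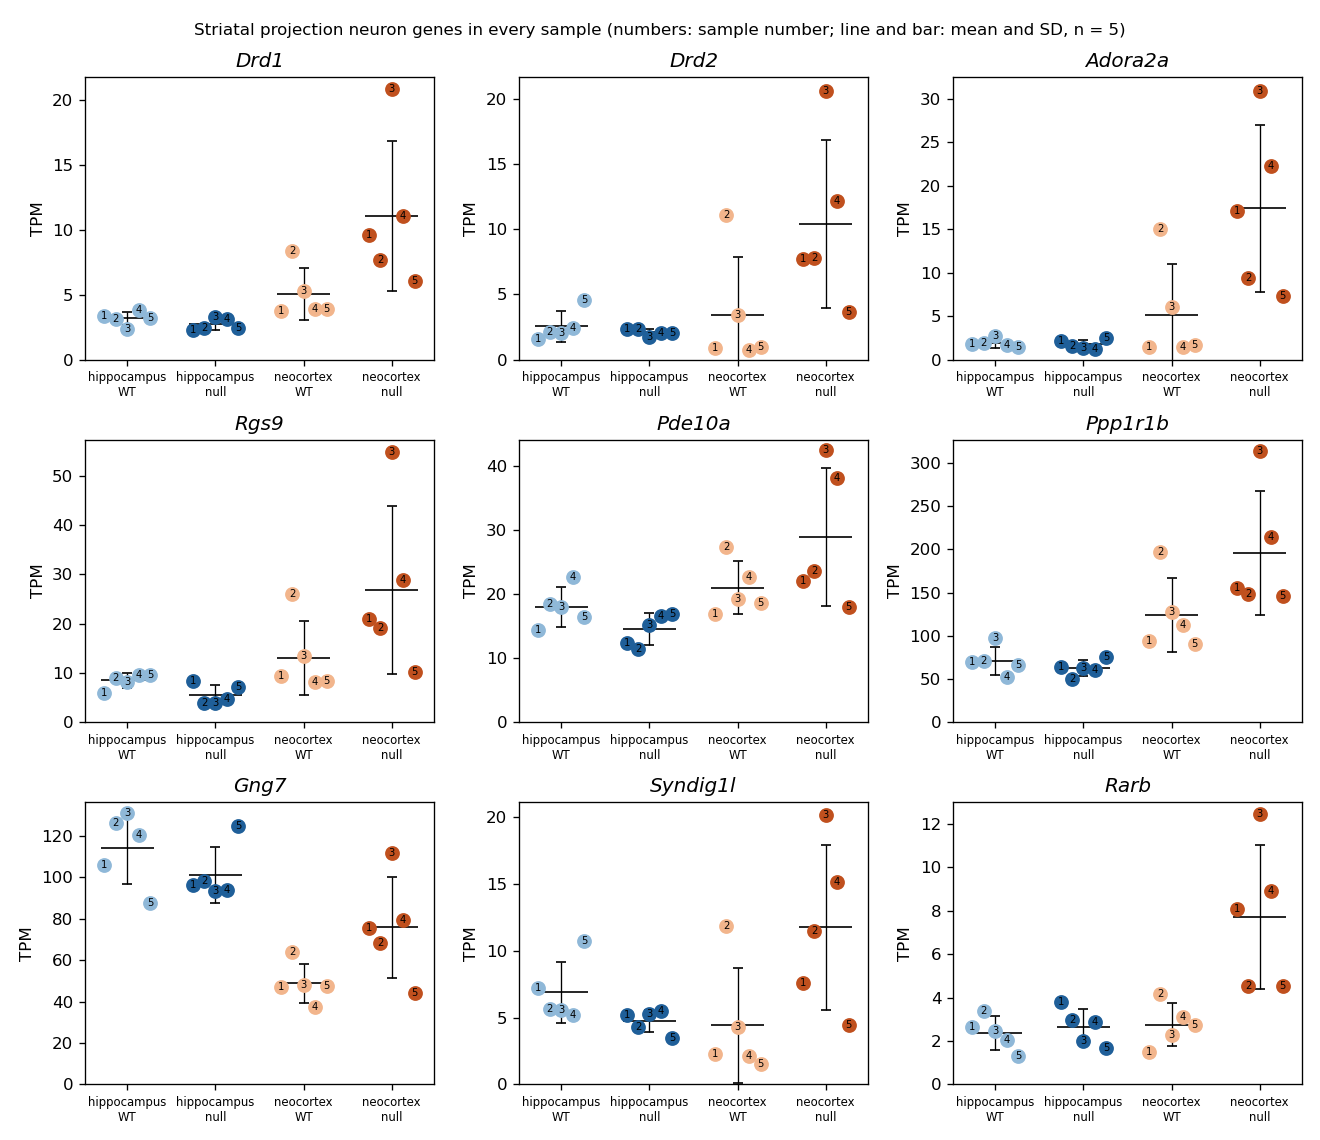
TPM (linear axis from 0) of the 9 genes in each of the 20 samples, in 4 groups of 5. Points carry the sample number, and lines and bars give mean and SD. Null sample 3 is the highest neocortex point in all 9 panels, and only for Gng7 do the hippocampus samples lie above most neocortex samples.

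Drd1 encodes the D1 dopamine receptor of the direct pathway and lies at chr13:54051183-54055705 on the minus strand (GRCm38). Its level in WT neocortex samples 1 to 5 was 3.79, 8.42, 5.29, 3.93 and 3.89 TPM. In null neocortex samples 1 to 5 it was 9.65, 7.66, 20.9, 11.1 and 6.05 TPM. All 5 null samples were above the WT median, yet WT sample 2 exceeded null samples 2 and 5. Group means were 5.06 ± 1.97 TPM in WT and 11.1 ± 5.80 TPM in null neocortex (SD, n = 5 each), with a log2 fold change of 1.06 (SE 0.32). In the hippocampus the 10 samples lay between 2.32 and 3.81 TPM, with means of 3.18 ± 0.516 TPM in WT and 2.72 ± 0.437 TPM in null.

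Drd2, at chr9:49340627-49408177 on the plus strand, encodes the D2 dopamine receptor of the indirect pathway. WT neocortex samples 1 to 5 had 0.916, 11.1, 3.41, 0.739 and 0.949 TPM, and null samples 1 to 5 had 7.70, 7.78, 20.6, 12.1 and 3.67 TPM. WT samples 1, 4 and 5 were below all 10 hippocampus samples (1.55 to 4.54 TPM), while WT sample 2 was above 3 of the 5 null samples. The highest and lowest neocortex samples differed 27.8-fold, the widest span of the list. The lowest value rested on 15 estimated counts and the highest on 473. The log2 fold change was 1.52 (SE 0.65), with means of 3.42 ± 4.42 TPM in WT and 10.4 ± 6.44 TPM in null neocortex (SD, n = 5 each).

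Adora2a, at chr10:75316877-75334784 on the plus strand, encodes the adenosine receptor that indirect pathway neurons carry beside the D2 receptor. Its level was 1.46, 15.0, 6.08, 1.40 and 1.73 TPM in WT neocortex samples 1 to 5 and 17.1, 9.37, 30.9, 22.2 and 7.30 TPM in null samples 1 to 5. WT samples 1, 4 and 5 were within the hippocampal range of Adora2a (1.24 to 2.77 TPM), whereas for Drd2 they were below the hippocampal range. WT sample 2 was above null samples 2 and 5. Adora2a had the largest log2 fold change of the list, 1.73 (SE 0.55), and spanned 22.1-fold over the neocortex.

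The ratios between the receptors set the indirect and direct pathway genes side by side. In the neocortex the ratio of Drd2 to Drd1 TPM was 0.188 to 0.244 in WT samples 1, 4 and 5, 0.646 in WT sample 3 and 1.31 in WT sample 2. It was 0.607 to 1.09 in the 5 null samples. The ratio of Adora2a to Drd2, both indirect pathway genes, stayed within 1.20 to 2.23 in all 10 neocortex samples while Drd2 itself spanned 27.8-fold. The levels of the indirect pathway receptors were thus close to proportional to each other over the neocortex samples. In the hippocampus the ratio of Drd2 to Drd1 lay between 0.464 and 1.42.

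Gng7, at chr10:80948624-81014945 on the minus strand, encodes the G protein gamma subunit that serves the D1 dopamine and adenosine receptors in striatal neurons. WT neocortex samples 1 to 5 had 46.8, 64.0, 48.0, 37.4 and 47.6 TPM, and null samples 1 to 5 had 75.6, 68.2, 112, 79.5 and 44.2 TPM. Of the null samples 4 were above every WT sample and null sample 5 was below 4 WT samples. The log2 fold change was 0.59 (SE 0.20). Gng7 was the member with the highest hippocampal level, 114 ± 17.5 TPM in WT and 101 ± 13.4 TPM in null hippocampus (SD, n = 5 each), against 48.8 ± 9.57 and 75.8 ± 24.2 TPM in WT and null neocortex.

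Rgs9, at chr11:109225355-109298129 on the minus strand, encodes a regulator that speeds the shut-off of G protein signals and is enriched in striatal neurons. Its level was 9.34, 26.0, 13.4, 8.10 and 8.42 TPM in WT and 21.0, 19.1, 54.8, 28.9 and 10.2 TPM in null neocortex samples 1 to 5. WT sample 2 exceeded null samples 1, 2 and 5. The log2 fold change was 1.03 (SE 0.42) in the neocortex and -0.59 (SE 0.21) in the hippocampus, where WT samples had 5.80 to 9.64 TPM and null samples 3.79 to 8.33 TPM.

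Pde10a, at chr17:8525372-8986648 on the plus strand, encodes a phosphodiesterase that breaks down cAMP and cyclic GMP. Its level was 16.9, 27.4, 19.2, 22.6 and 18.7 TPM in WT and 22.1, 23.6, 42.6, 38.2 and 18.0 TPM in null neocortex samples 1 to 5. Null samples 3 and 4 alone were above the WT range. The hippocampus, at 11.4 to 22.7 TPM over 10 samples, overlapped 6 of the 10 neocortex samples, and the log2 fold change in the neocortex was 0.47 (SE 0.24).

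Ppp1r1b, at chr11:98348404-98357796 on the plus strand, encodes DARPP-32, which inhibits protein phosphatase 1 when cAMP signalling phosphorylates it. It was the most abundant member in the neocortex, with 93.4, 196, 128, 112 and 90.2 TPM in WT and 155, 148, 314, 214 and 146 TPM in null samples 1 to 5. WT sample 2 lay above 3 of the 5 null samples. Means were 124 ± 43.3 and 195 ± 71.9 TPM in WT and null neocortex and 71.2 ± 16.3 and 62.3 ± 9.23 TPM in WT and null hippocampus (SD, n = 5 each). The log2 fold change in the neocortex was 0.61 (SE 0.24).

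Rarb, at chr14:16430839-16819156 on the minus strand, encodes retinoic acid receptor beta, a transcription factor needed for striatal neuron development. Its level was 1.49, 4.15, 2.28, 3.12 and 2.72 TPM in WT and 8.07, 4.54, 12.5, 8.92 and 4.54 TPM in null neocortex samples 1 to 5. This was the 1 member of 9 whose WT and null neocortex ranges did not overlap, by a gap of 4.15 to 4.54 TPM, where 1.31% of the 14930 genes tested had null samples all above WT. The log2 fold change was 1.06 (SE 0.32) and rested on 30 to 194 estimated counts per sample. In the hippocampus Rarb ranged from 1.30 to 3.78 TPM. There 0 of the 9 genes had ranges that did not overlap, where 1.01% of genes had null samples all above WT and 0.635% all below.

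Syndig1l, at chr12:84677277-84698831 on the minus strand, encodes capucin, a membrane protein enriched in the caudate putamen. WT neocortex samples 1 to 5 had 2.29, 11.9, 4.26, 2.14 and 1.51 TPM and null samples 1 to 5 had 7.62, 11.5, 20.1, 15.1 and 4.41 TPM. WT sample 2 was above 3 null samples. In the hippocampus WT samples 1 to 5 had 7.24, 5.66, 5.60, 5.17 and 10.8 TPM and null samples 5.16, 4.33, 5.29, 5.48 and 3.50 TPM, so that its level in WT neocortex samples 1, 4 and 5 was below all 10 hippocampus samples.

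**Figure D2:**
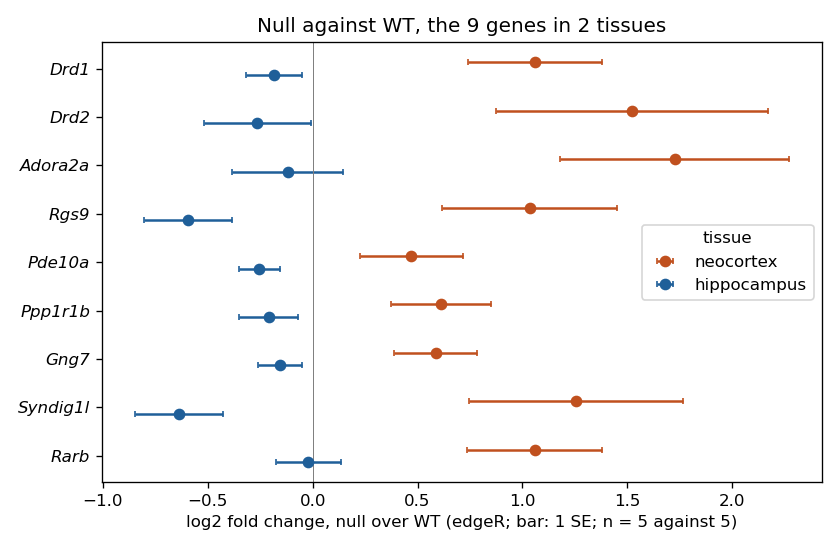
Log2 fold change of null over WT for the 9 genes (points, edgeR; bars, 1 SE; 5 against 5 samples) in neocortex and hippocampus. The neocortex points lie between 0.47 and 1.73 and the hippocampus points between -0.64 and -0.02.

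In the fit over all genes, 0 of the 9 genes passed an adjusted p of 0.05 (edgeR's quasi-likelihood test, Benjamini-Hochberg over all genes tested) for genotype in the neocortex, where 0.315% of 14930 genes did, and 8 had an unadjusted p under 0.05, as 1822 of the 14930 genes did. In the hippocampus 0 of 9 passed, where 0.115% of 14796 genes did (0.0676% as higher and 0.0473% as lower in null). Of the 9 genes, 3 had an unadjusted p under 0.05 there, as 1635 of the 14796 genes did. The difference between the tissues in the genotype effect was 0.72 to 1.88 on the log2 scale for the 9 genes, and 0 of 9 passed for it, where 0.0195% of 15391 genes did. Leaving out each neocortex sample in turn, all 9 log2 fold changes stayed above 0. Without WT sample 2 the log2 fold change was 2.74 for Drd2, 2.53 for Adora2a and 2.07 for Syndig1l, against 1.52, 1.73 and 1.26 with it, and 0 of 9 passed. Without null sample 5, Drd1 (1.22, SE 0.30), Rarb (1.22, SE 0.30) and Gng7 (0.73, SE 0.15) passed the threshold, in a fit in which 566 of all genes passed in place of 47. Without the highest null sample and the highest WT sample together (samples 3 and 2), a comparison added after the data were seen, the log2 fold changes were 0.46 to 2.35 and 0 of 9 passed. For the fits without WT sample 2 the share of all genes passing is not given, so nothing is read from their counts.

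Between tissues, neocortex over hippocampus, the log2 difference in WT was -1.24 (SE 0.17) for Gng7, -0.64 (SE 0.44) for Syndig1l and 0.21 to 1.25 for the other 7 genes, and 2 of 9 genes passed where 33.5% of 15391 genes did. In null mice it was -0.50 (SE 0.17) for Gng7 and 0.93 to 3.10 for the other 8, of which the largest were Adora2a (3.10, SE 0.52) and Rgs9 (2.24, SE 0.38), and 9 of 9 passed where 32.5% of genes did. The order of group means was the same for Drd1, Adora2a, Rgs9, Pde10a and Ppp1r1b: null neocortex, WT neocortex, WT hippocampus, null hippocampus. For Rarb it was null neocortex, WT neocortex, null hippocampus, WT hippocampus, for Syndig1l null neocortex, WT hippocampus, null hippocampus, WT neocortex, and for Gng7 WT hippocampus, null hippocampus, null neocortex, WT neocortex. The hippocampus groups differed by less than 1 SD of the WT hippocampus samples for 7 genes, all but Rgs9 and Pde10a. For Drd2 the same order held, but WT neocortex and both hippocampus groups differed by less than the WT neocortex SD of 4.42 TPM.

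**Figure D3:**
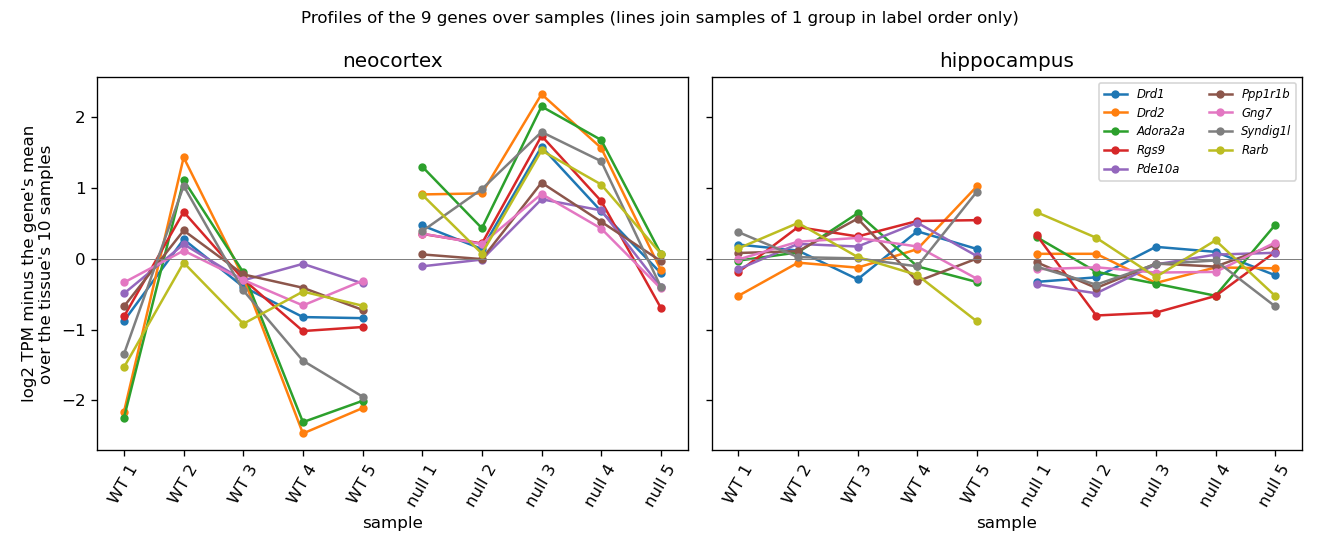
Log2 TPM of each of the 9 genes minus its own mean over the 10 samples of the tissue (y axis), by sample (x axis), in neocortex and hippocampus. In the neocortex the 9 lines move together, with Drd2 and Adora2a steepest, and in the hippocampus they cross.

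The joint movement of the list was summarised as the mean over the 9 genes of log2(TPM + 0.1). In WT neocortex samples 1 to 5 this mean was 2.66, 4.36, 3.43, 2.75 and 2.72, and in null samples 4.30, 4.12, 5.33, 4.76 and 3.56. WT sample 2 thus ranked 3 of the 10 neocortex samples from the top, and null sample 5 ranked 6. The group means were 3.19 ± 0.73 in WT and 4.41 ± 0.67 in null neocortex (SD, n = 5 each), a difference of 1.23. In the hippocampus the WT samples lay between 3.0 and 3.19 and the null samples between 2.76 and 3.05. The SD within a hippocampus group was 0.078 in WT and 0.12 in null, so the list spread more over neocortex than over hippocampus samples.

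After each group's mean was taken out, the 36 pairs of members had a median Pearson r of 0.89 over the 10 neocortex samples (range 0.73 to 0.98), and 27 pairs were over 0.8. In the hippocampus the median over the same pairs was -0.09 (range -0.95 to 0.70) and no pair was over 0.8. These values are descriptions over 10 libraries that share tissue and preparation, and the members were chosen with this variation known. The steps of the genes differed within the shared pattern, taken for each gene per unit of the mean of the other members. The log2 level moved by 1.95 for Drd2, 1.59 for Adora2a, 1.41 for Syndig1l and 1.13 for Rgs9. It moved by 0.79 for Drd1, 0.68 for Rarb, 0.59 for Ppp1r1b, 0.56 for Pde10a and 0.44 for Gng7. That mean differed from gene to gene, so these slopes are not on a common scale. The log2 SD within groups was larger for both indirect pathway receptors than for Drd1 (Drd2 1.31, Adora2a 1.11, Drd1 0.59). For the most abundant members, Ppp1r1b and Gng7, it was 0.45 and 0.39. The SD within groups of each member in the neocortex was above that of at least 90.8% of genes tested.

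Among 14921 other genes tested in the neocortex, 102 (0.684%) had an r over 0.8 with the 9-gene mean. Among the 10 most alike were Zbed5 (r = 0.98), Nexn (0.96), Serpina9 (0.96), Sh3rf2 (0.96), Penk (0.95), Pde1b (0.95), Gpr6 (0.94), Cd4 (0.93) and Htr1d (0.92), all highest in null sample 3. Penk (enkephalin precursor) and Gpr6 (an orphan receptor) are known genes of the indirect pathway, and Pde1b is a striatal phosphodiesterase. Zbed5, the closest by r, moved only between 4.24 and 5.25 TPM, so likeness in pattern did not mean a like size of change. The 5 most opposite were Marveld1, Nck2, Hmgb1, Gspt1 and Shmt1, with r from -0.93 to -0.90. In the hippocampus the 5 most alike were Phf6, 1700028P14Rik, Synpo2, Ears2 and Gm20605 (r from 0.95 down to 0.87), none of which was among those of the neocortex. There 29 of 14787 other genes (0.196%) had an r over 0.8. The members' own r with their mean had a median of only 0.28 in the hippocampus (-0.54 to 0.95). Likeness to that mean was thus not likeness to a pattern that the 9 genes shared.

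**Figure D4:**
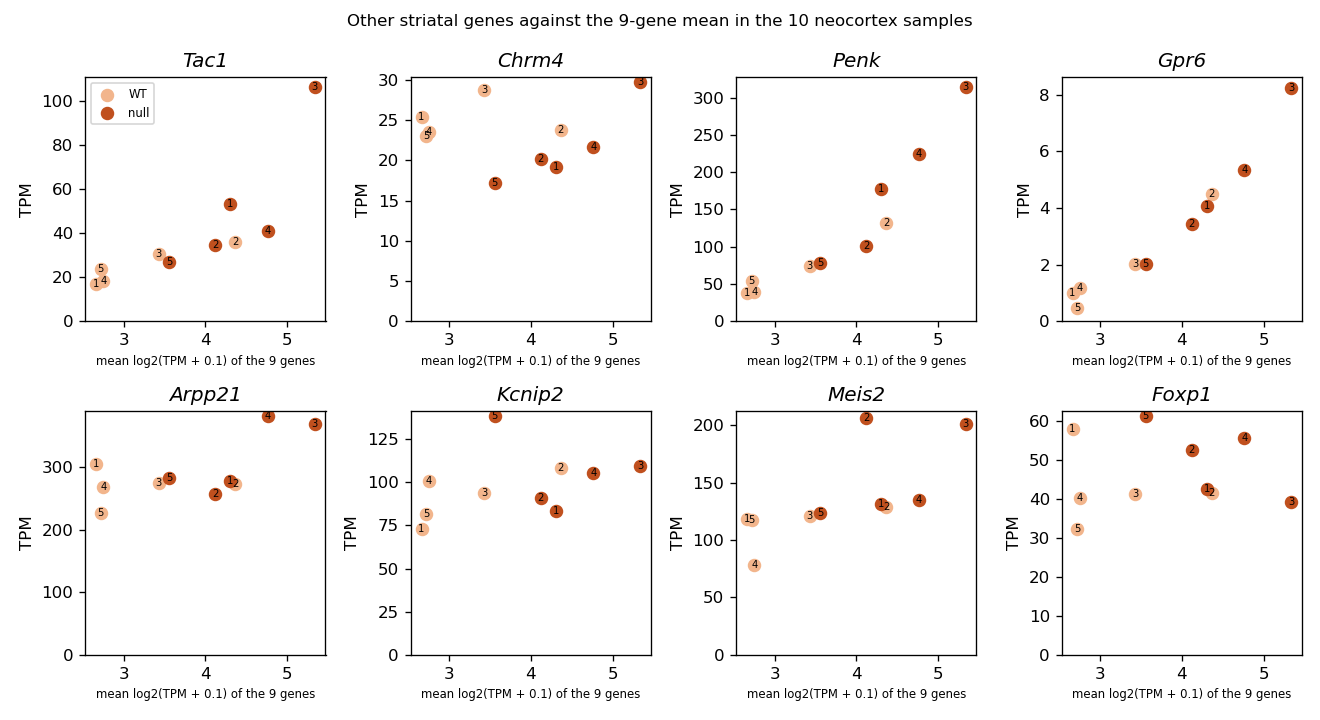
TPM of the 2 most abundant genes of each of 4 further striatal lists (y axes, from 0) against the 9-gene mean of log2(TPM + 0.1) (x axis) in the 10 neocortex samples, with sample numbers. Penk and Gpr6 are higher in samples with a higher 9-gene mean, with null sample 3 highest, whereas the highest Kcnip2 and Foxp1 values are in null sample 5.

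A further 32 striatal genes outside the list were read in the same way, of which 31 were measured. The indirect pathway list followed the 9 genes most closely: the r with their mean in the neocortex had a median of 0.92 over the 4 genes tested. Penk had 37.7, 132, 74.5, 39.8 and 53.5 TPM in WT and 177, 102, 314, 224 and 77.7 TPM in null neocortex samples 1 to 5, highest in null sample 3 and lowest in WT samples 1 and 4, as Drd2 was highest and lowest in null sample 3 and WT sample 4. Gpr6 ranged from 0.468 to 8.23 TPM, lowest in WT sample 5 and highest in null sample 3. The 15 signalling and channel genes had a median r of 0.84 and 8 of them were over 0.8, among them Pde1b and Adcy5 (the adenylyl cyclase of striatal neurons). The most abundant of the list, Arpp21 (a cAMP-regulated phosphoprotein) and Kcnip2 (a potassium channel subunit), had 227 to 382 and 73.1 to 138 TPM over the neocortex samples, and Kcnip2 had r = 0.32.

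The direct pathway list had a median r of 0.64 over 4 genes. Tac1 (the substance P precursor) had r = 0.86 and reached 107 TPM in null sample 3 against 17.1 to 53.3 TPM in the other neocortex samples. Chrm4, a muscarinic receptor, had 17.1 to 29.7 TPM and r = 0.71. Isl1, a transcription factor of developing striatal neurons, and Drd3 were too low to be tested, and both were highest in null sample 3, at 5.55 and 0.94 TPM. The 6 transcription factors had a median r of 0.47. Of these Foxp1 ranged from 32.4 to 61.2 TPM with its highest value in null sample 5, and Meis2 from 78.5 to 206 TPM with its highest in null sample 2. Over all genes tested the median r was 0.01.

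In the neocortex 0 of 29 tested genes of these lists passed for genotype by edgeR's quasi-likelihood test (background 0.315%), with a smallest adjusted p of 0.152 and 19 at an unadjusted p under 0.05 (1822 of 14930 over all genes). Their median log2 fold change was 0.40, against 0.00 over all genes, and 27 of 29 were above 0, against 51.9% of all genes. In the hippocampus 0 of 27 passed (background 0.115%), 4 had an unadjusted p under 0.05 (1635 of 14796 over all genes), and the median was -0.09. DESeq2 called 1 gene in each tissue, Bcl11b in the neocortex (0.33, SE 0.09) and Cnr1 in the hippocampus (0.32, SE 0.09). It also called more of all genes than edgeR in both tissues, so the backgrounds given here do not apply to these calls. Between tissues in WT, 13 of 29 passed (44.8%, background 33.5%), 9 higher and 4 lower in the neocortex. In null mice 25 of 29 passed (86.2%, background 32.5%), 22 higher and 3 lower, among them Scn4b (2.88, SE 0.30), a sodium channel subunit. For the difference between these tissue effects 0 of 29 passed (background 0.0195%) and 14 had an unadjusted p under 0.05 (857 of 15391 over all genes).

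The wider dopamine and cAMP pathway followed the 9 genes less closely. Of 18 genes, which included the G protein subunits Gnas and Gnao1, kinase subunits such as Prkaca and the phosphatase Ppp1ca, 17 were tested and their median r with the 9-gene mean in the neocortex was 0.16. None passed for genotype in either tissue by edgeR (0 of 17 each, 2 at an unadjusted p under 0.05 in each; over all genes 0.315% and 0.115% passed, and 1822 of 14930 and 1635 of 14796 had such a p), and their median log2 fold changes were 0.02 in the neocortex and 0.00 in the hippocampus. DESeq2, which called more of all genes than edgeR, called Rara, retinoic acid receptor alpha, in the neocortex at -0.39 (SE 0.11). Pde7b, another phosphodiesterase, came nearest the pattern with r = 0.78. Drd5, the D1-like receptor of hippocampal neurons, had 5.15 to 9.91 TPM in the hippocampus and 0.383 to 1.61 TPM in the neocortex, whereas Drd1 was higher in the neocortex.

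**Figure D5:**
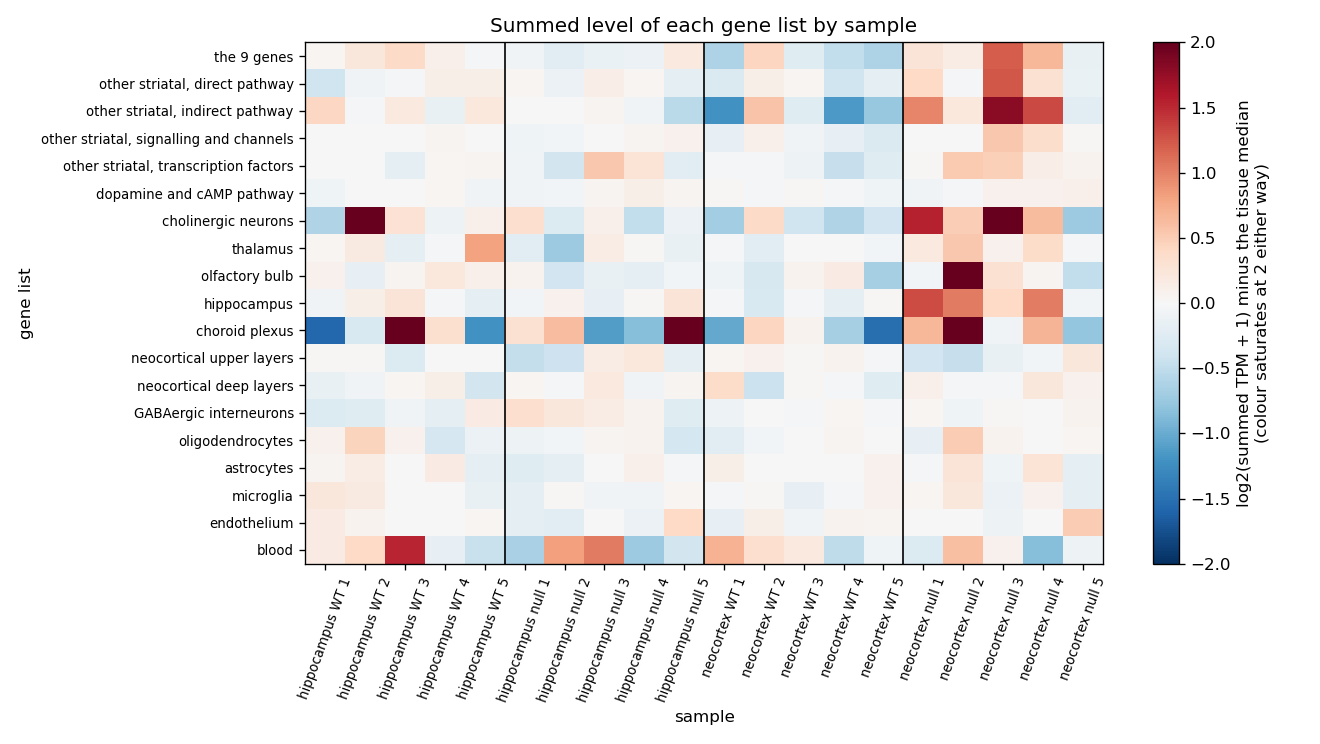
Log2(summed TPM + 1) of each gene list minus the median of the tissue's 10 samples (colour, saturating at 2), by sample. The 9 genes, the direct and indirect pathway lists and the cholinergic list are highest among neocortex samples in null sample 3, while the olfactory bulb and choroid plexus lists are highest among neocortex samples in null sample 2.

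Markers of other cells and regions were read beside the 9 genes. The summed level of the 5 cholinergic markers was 16.5 TPM in neocortex null sample 3, 7.25 TPM in null sample 1 and 0.72 to 3.42 TPM in the other 8. The 3 of them tested had a median r of 0.76 with the 9-gene mean, and Lhx8, the transcription factor of forebrain cholinergic neurons, was at 5.58 TPM in null sample 3 and at 0 in WT samples 4 and 5 and null sample 5. Of the 5 markers of deep neocortical layers, r was -0.82 for Fezf2, -0.61 for Tle4, -0.34 for Etv1, -0.24 for Rprm and 0.24 for Sulf1, and without the 2 samples farthest from the median it was 0.15 for Etv1 and 0.08 for Rprm. Fezf2 had 18.1 TPM in WT sample 2 and 19.4 TPM in null sample 3 against 36.0 TPM in WT sample 1. The sum of 6 hippocampal markers was 6.75 to 8.68 TPM in WT neocortex and 8.13 to 22.5 TPM in null neocortex, highest in null sample 1, and their median r with the 9-gene mean was -0.03. Median r lay between -0.34 and 0.17 for the lists of thalamus, olfactory bulb, choroid plexus, both neocortical layers, interneurons, oligodendrocytes, astrocytes, microglia, endothelium and blood. Within the interneuron list r was 0.71 for Gad2 and 0.64 for Slc32a1, and from -0.56 (Vip) to 0.27 (Lhx6) for the others. As r was taken after group means were removed, it leaves out differences between genotypes. In the neocortex the median log2 fold change of null over WT was 1.22 for hippocampal and 1.63 for choroid plexus markers (4 of 4 tested above 0 in each). It was 1.5 for cholinergic and 0.92 for olfactory bulb markers (3 of 3 tested above 0 in each). For markers of upper layers it was -0.22 (0 of 5 above 0), where 51.9% of all genes were above 0. None of these markers passed by edgeR's quasi-likelihood test, where 0.315% of 14930 genes did. An unadjusted p under 0.05 was found for 3 cholinergic, 3 hippocampal, 3 choroid plexus, 1 olfactory bulb and 3 upper layer markers, as for 1822 of the 14930 genes. The part of any of these cells in the levels of the 9 genes was not tested.

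Estimates by transcript showed the same order of samples for some genes and not for others. Drd2 is measured by 1 transcript. The main transcripts Ppp1r1b-204 (r = 0.97), Syndig1l-201 (0.96), Adora2a-201 (0.96), Rgs9-202 (0.94) and Gng7-201 (0.88) followed the 9-gene mean in the neocortex. That mean contains the gene of each transcript, so a part of each r is built in. The main transcripts by mean TPM of Pde10a and Rarb, Pde10a-205 (0.68) and Rarb-202 (0.36), followed the 9-gene mean less. Both are annotated as nonsense-mediated decay transcripts and not as protein coding. Among coding transcripts with a mean of at least 0.5 TPM, r was -0.69 (Pde10a-204) to 0.50 (Pde10a-202) for Pde10a. For Rarb it was 0.32 (Rarb-207) to 0.90 (Rarb-201). Gng7-202 (-0.02) and Gng7-204 (-0.05) did not follow the 9-gene mean. Drd1-201 and Drd1-202, whose spans nearly coincide, had r of 0.14 and 0.36, and the estimated share of each moved widely from sample to sample. Drd1 as a whole had 0.96 by another measure, from normalised counts and against the mean of the other members. The share of the main transcript was compared between WT and null in 8 genes and both tissues, and 0 of 16 shares passed after adjustment (exact permutation test, two-sided; smallest p the design allows 0.00794; 2 under 0.05 unadjusted). The closest was Rgs9-202, at 54.1% ± 5.00 of Rgs9 in WT and 42.5% ± 6.70 in null neocortex (SD, n = 5 each; exact p = 0.0238, adjusted 0.381).

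Gng7 has annotated starts far apart, and its promoters are printed because transcripts from each could be summed separately. Transcripts from the upstream start (Gng7-201 and Gng7-203) had 34.3 ± 11.4 TPM in WT and 44.4 ± 15.4 TPM in null neocortex (SD, n = 5 each). Those from the internal start (Gng7-202 and Gng7-204) had 13.6 ± 2.96 TPM, 8.90 to 16.2 TPM, in WT and 29.9 ± 12.9 TPM, 15.9 to 46.5 TPM, in null neocortex. The ranges overlapped only at null sample 5. Internal transcripts made up 29.8% ± 9.79 of both sums in WT and 40.0% ± 11.6 in null neocortex, and 37.6% ± 11.4 and 36.0% ± 9.36 in WT and null hippocampus. These shares differed by about 1 SD or less between genotypes and had no test.

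RefSeq (GRCm38.p6) gave promoters for 6 of the 9 genes, at 9 starts. Adora2a, Ppp1r1b and Syndig1l had none in the table. The 250 bases before a start are printed 5′ to 3′ on the gene's strand, with GC boxes (GGGCGG on either strand) and the retinoic acid response element in capitals. Below are the upstream start of Gng7 at chr10:81014926-81015175, its internal start at chr10:81001366-81001615 and Rarb at chr14:16575477-16575726, all on the minus strand.
Gng7 upstream start: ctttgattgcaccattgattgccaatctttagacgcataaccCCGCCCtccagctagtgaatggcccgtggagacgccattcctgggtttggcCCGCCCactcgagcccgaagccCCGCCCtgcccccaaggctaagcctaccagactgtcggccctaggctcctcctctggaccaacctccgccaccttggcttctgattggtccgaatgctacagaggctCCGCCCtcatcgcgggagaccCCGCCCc
Gng7 internal start: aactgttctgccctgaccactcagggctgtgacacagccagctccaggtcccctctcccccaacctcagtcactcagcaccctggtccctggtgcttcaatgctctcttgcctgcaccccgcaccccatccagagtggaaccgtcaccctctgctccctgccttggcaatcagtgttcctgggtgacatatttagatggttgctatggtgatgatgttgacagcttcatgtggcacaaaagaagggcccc
Rarb: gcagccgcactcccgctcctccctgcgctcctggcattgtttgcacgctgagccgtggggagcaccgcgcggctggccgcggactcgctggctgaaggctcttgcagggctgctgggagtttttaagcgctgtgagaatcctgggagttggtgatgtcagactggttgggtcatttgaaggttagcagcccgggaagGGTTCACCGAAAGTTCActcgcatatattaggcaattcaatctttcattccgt

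The upstream Gng7 promoter held 5 GC boxes and the internal one none. A GC box was found in 5 of the 9 member promoters and in 32.7% of 32851 promoters of the same length. The Rarb promoter held a direct repeat of GGTTCA and AGTTCA with 5 bases between them (searched on either strand), the response element through which retinoic acid receptors are known to act on this gene, from 53 to 37 bases before the start. The letters searched were those of this element itself, so the match in Rarb was set by the search. They were held by 2 of the 32851 promoters (0.00609%). The cAMP response element TGACGTCA was in none of the 9 member promoters and in 1.55% of all. The E box CACGTG was also in none and in 6.02% of all, and the TATA box letters TATAAA were in that of Rgs9 only and in 12.4% of all.

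Ppp1r1b and Rgs9 lie on the chromosome of Mir324, at 28.3 and 39.2 megabases from it. Within 1 megabase of Ppp1r1b, 4 of 45 tested genes passed for genotype in the neocortex and 2 of 43 in the hippocampus, all lower in null samples, where 0.154% and 0.0473% of all genes passed as lower. The 4 were B230217C12Rik, Cisd3, Igfbp4 and Mllt6, of which B230217C12Rik and Mllt6 passed in both tissues. Within 1 megabase of Rgs9, 0 of 15 passed in either tissue. The part of the founders' mixed background in these values was not tested.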

How the data were processed

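RNA-seq of 20 samples, 5 in each of the 4 groups of tissue and genotype, was analysed. Per the authors, polyadenylated RNA was prepared with the TruSeq Stranded mRNA kit, sequenced on an Illumina NextSeq and quantified with kallisto against the mouse GRCm38 transcriptome (release 92), and the submitters' processing notes also name DESeq2. The deposited estimated counts are not whole numbers and are not normalised. The deposited TPM values were made by the authors' kallisto run, scaled for transcript length and library total.

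Transcripts were summed to 35580 genes through GENCODE (113580 of 115270 matched, with at most 0.556% of counts unmatched). Rounded estimated counts were tested with edgeR 4.0.16 (quasi-likelihood, TMM, filterByExpr) in R 4.3.3, per tissue for genotype and over all samples for tissue and interaction, with Benjamini-Hochberg adjustment at 0.05. The code was tested on simulated data with 200 changed genes. Likeness was Pearson's r with the mean log2(TPM + 0.1) of the 9 genes after centring on group means. Alternatives included DESeq2 1.42.0 (its test and its size factors), other filters, an average transcript length offset, all samples in one fit, each sample left out and a replicate block. Same-numbered samples were not treated as paired. The labels do not say that samples came from separate mice, so p-values measure the spread between these samples only.

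Members and lists were chosen with earlier results of these data known. The text names the 9 members, striatal and pathway genes called for genotype, the most abundant 2 of each striatal list, and the genes most like and most opposite to the 9-gene mean. Other genes named were chosen after their values were seen. A few genes selected in this way were left out of the text. A count of 3 per library was the floor for a gene at 0, for counting error only.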

Additional observations from a re-analysis of the deposited data

Results flagged for a closer look

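In 3 of 40 sets of 5 samples (9 genes and the 9-gene mean, in 4 groups), the gap of 1 sample to the nearest of the other 4 was 0.734 to 0.845 of the group's whole range. The limit used marks about 1 in 20 groups by chance, and as the list was chosen with these levels known, the values are a description. Drd2 in WT neocortex sample 2 was at 11.0646 TPM, against 0.739 to 3.41 TPM in the other WT neocortex samples. Syndig1l in the same sample was at 11.8725 TPM, against 1.51 to 4.26 TPM in the others. Gng7 in null hippocampus sample 5 was at 125.033 TPM, against 93.2 to 98.1 TPM in the others, and that sample also had one of the 2 highest choroid plexus sums of the hippocampus (6014 TPM). The part of other tissue in these values was not tested.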

How the results depend on the processing

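Over the settings other than leaving out a sample, 73 of 78 results kept their direction and a like count of calls. With DESeq2, 1 of 29 other striatal genes (Bcl11b) and 1 of 17 pathway genes (Rara) passed for genotype in the neocortex, and 1 of 27 other striatal genes (Cnr1) in the hippocampus, while 240 and 138 of all genes passed in place of 47 and 17. The cause was not tested. The list of the 10 genes most like the 9-gene mean shared 4 genes with that ordered by Spearman's rho and 4 with that made without the 2 samples farthest from the median (null sample 3 and WT sample 1). With each sample left out in turn, 137 of 140 results were kept, and calls for genotype in the neocortex ranged from 0 to 3 for the 9 genes and from 0 to 7 for the other striatal genes, and from 0 to 1 for the latter in the interaction. The highest value of each was without null sample 5, where 566 of all genes passed. Of the members' log2 fold changes in the neocortex, 0 of 90 changed sign, and 4 of 90 did in the hippocampus, where Rarb also turned to 0.16 with an average transcript length offset. With the 9-gene mean as a covariate, chosen after seeing the data, the members' log2 fold changes were -0.37 to 0.20. That covariate contains the members. With a replicate block, 0 of the 9 genes, 0 other striatal genes and 0 pathway genes passed for genotype in either tissue, and for tissue in null mice 24 of 29 other striatal genes passed in place of 25. The share of all genes passing in the fits with a block is not given, so nothing is read from these counts. Same-numbered WT and null samples of a tissue correlated at -0.17 to 0.12. Between hippocampus and neocortex of 1 genotype r was -0.10 to 0.18, 4 of 10 pairs were over 0.1 and 5 of 10 samples correlated best with their own number, which is a hint from the data and not from the design. Depth limited the low members most: the lowest neocortex sample had 15 estimated counts for Drd2, 29 for Adora2a, 30 for Rarb and 33 for Syndig1l, against at least 113 for each of the other 5.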
